A study of Homo sapiens with 4 samples.

Results

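Chromosome 12 carried 1693 of the 33948 enhancers and promoters in a GRID-seq table of RNA-chromatin contacts, 1162 of them enhancers and 531 promoters. They were taken as every distinct element that the deposited table places on this chromosome, and the chromosome itself was selected on its excess of contacts listed in wild-type cells, so that excess is a description and not a finding. GRID-seq ligates RNA to nearby DNA inside fixed nuclei through a linker, so that each sequenced molecule pairs an RNA with the DNA it lay beside. The libraries came from K562, a human leukaemia line with erythroid features that carries the BCR-ABL1 fusion. There were 2 libraries of cells with the RUNX1 R320* genotype and 2 libraries of cells with the WT genotype. R320* denotes a stop codon in the blood transcription factor RUNX1. The labels do not say whether the R320* cells were 1 clone, nor whether libraries came from separate cultures.

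The authors gave 1 score per contact and genotype, pooled over libraries, so no test, replicate spread or p-value was possible and the depth is unknown. A score was either 0 or at least 1.20, and 0 was read as not listed. A contact is a pair of an RNA and an element, and the table types it as local (near the RNA's own gene), cis (elsewhere on the same chromosome) or trans (RNA from another chromosome). Because the table gives neither RNA levels nor DNA coverage, fewer contacts per RNA molecule, less RNA and fewer copies of a DNA segment cannot be told apart. Of 10 marker genes of K562 and its erythroid character, 5 were listed as RNAs (ABL1, BCR, HBE1, HBG2 and TFRC). Of 3 megakaryocytic markers 1 was listed (ITGA2B), and none of 3 myeloid or 3 lymphoid markers was.

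Newly made RNA is still held near its gene by the transcribing polymerase. Where such RNA is found at a distant element, gene and element can lie close together in the folded nucleus. A contact alone does not show whether the RNA was still held at its gene. Enhancers are stretches of DNA that bind transcription factors and raise transcription of genes they meet, and promoters are where transcription starts. A small number of nuclear long noncoding RNAs, among them MALAT1 and NEAT1, are known to spread to active chromatin of many chromosomes. RUNX1 binds DNA with its partner CBFB through its Runt domain, and the part of the protein lost in C-terminal stop mutants holds regions that act on transcription.

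Promoter sequences are shown for 4 elements that the results below turn on. Each is the RefSeq window of 250 bases before to 50 after the gene start (GRCh38.p14), printed 5′ to 3′ on the gene's strand. VPS37B (chr12:122896075-122896374, minus strand) and ITGA5 (chr12:54419217-54419516, minus strand) stand for promoters with fewer RNAs in R320*. STX2 (chr12:130839201-130839500, minus strand) had more RNAs in R320*, and ITFG2 (chr12:2812418-2812717, plus strand) had RNAs in R320* only. Capitals mark TGACGTCA, the cyclic-AMP response element bound by CREB and ATF factors, which was found 2 times in the VPS37B window and in none of the other 3.
VPS37B: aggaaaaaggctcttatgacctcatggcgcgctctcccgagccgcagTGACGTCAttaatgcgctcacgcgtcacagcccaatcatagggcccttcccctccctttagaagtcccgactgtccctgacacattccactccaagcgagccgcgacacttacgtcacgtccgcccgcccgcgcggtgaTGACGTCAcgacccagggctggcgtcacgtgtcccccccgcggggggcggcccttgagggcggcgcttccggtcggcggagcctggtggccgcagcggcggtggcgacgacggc
ITGA5: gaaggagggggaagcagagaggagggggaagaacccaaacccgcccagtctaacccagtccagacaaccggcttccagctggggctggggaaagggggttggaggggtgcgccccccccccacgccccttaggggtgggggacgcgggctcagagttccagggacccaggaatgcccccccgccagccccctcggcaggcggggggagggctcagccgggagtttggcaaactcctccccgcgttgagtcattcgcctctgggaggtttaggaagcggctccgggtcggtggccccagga
STX2: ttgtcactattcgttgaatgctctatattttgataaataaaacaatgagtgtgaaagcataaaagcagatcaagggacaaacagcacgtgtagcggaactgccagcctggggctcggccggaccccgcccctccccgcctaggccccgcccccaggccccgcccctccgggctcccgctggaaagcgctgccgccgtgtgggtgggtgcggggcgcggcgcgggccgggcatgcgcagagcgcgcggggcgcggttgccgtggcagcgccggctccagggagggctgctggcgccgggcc
ITFG2: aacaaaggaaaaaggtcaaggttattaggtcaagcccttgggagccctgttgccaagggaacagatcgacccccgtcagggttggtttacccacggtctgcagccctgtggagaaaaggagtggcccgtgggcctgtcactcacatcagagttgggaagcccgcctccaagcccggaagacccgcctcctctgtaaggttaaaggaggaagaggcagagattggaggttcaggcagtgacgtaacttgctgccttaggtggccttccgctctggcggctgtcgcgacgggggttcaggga

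RefSeq windows matched 296 of the 531 promoter elements by symbol, 369 windows in all. The letters TGTGGT, the core of the RUNX motif, were searched on both strands and stood in 32 of the 369 windows (8.67%), against 13.1% of all 35116 RefSeq promoters. They stood in 15 of 169 windows of promoters with fewer RNAs in R320* (8.88%) and in 10 of 117 windows of promoters listed in WT only (8.55%). AGATAA, a form of the GATA motif, stood in 5.15% of the chromosome 12 windows and in 10.3% of all promoters. TGACGTCA, which reads the same on both strands, stood in 12 of the 369 windows (3.25%) and in 1.85% of all promoters. TGTGGT and AGATAA were in none of the 4 windows printed above. The sets are unlike, since the 369 windows lie in promoter elements with contacts, while the other set holds every RefSeq promoter. Promoter elements of the other chromosomes were not searched. These matches describe letters only.

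In R320* cells 1799 of the 4434 contacts of chromosome 12 elements were listed, against 3990 in WT cells. R320* cells alone had 444 (10.0%), WT cells alone 2635 (59.4%), and both genotypes 1355 (30.6%). On all other chromosomes, 29.3% of contacts were listed in R320* only, 25.0% in WT only and 45.7% in both. Among contacts listed in 1 genotype, the R320*-only share was 14.4% on chromosome 12. The next lowest were 35.9% on chromosome X and 42.0% on chromosome 5, and the median of the other 22 chromosomes was 55.3%. Enhancers and promoters differed little in this: R320*-only contacts made up 14.6% of the single-genotype contacts of enhancers and 14.1% of those of promoters.

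**Figure D1:**
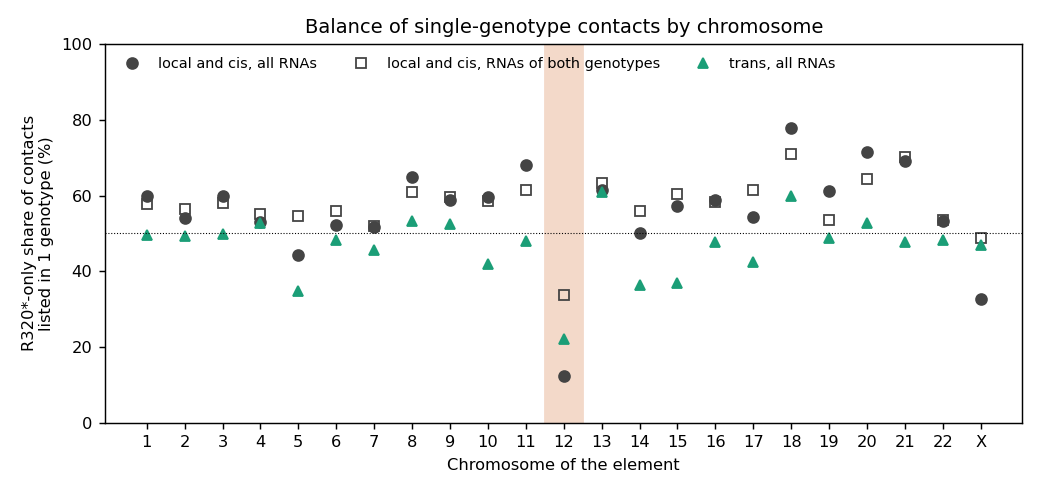
The share of contacts listed in R320* only among those listed in 1 genotype (percent, vertical axis) is plotted for each chromosome of the element (horizontal axis), with chromosome 12 shaded. Filled circles are local and cis contacts (12.5% on chromosome 12), open squares the same for RNAs listed in both genotypes (33.7%) and triangles trans contacts (22.2%), and all 3 are the lowest of their kind.

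The imbalance was present in local, cis and trans contacts. Of 266 local contacts, 6 were listed in R320* only and 145 in WT only. Of 3526 cis contacts, 301 were in R320* only and 2011 in WT only. Of 642 trans contacts, made by RNAs whose genes lie on other chromosomes, 137 were in R320* only and 479 in WT only. The R320*-only share of single-genotype trans contacts was 22.2%, against a lowest value of 34.8% on another chromosome (chromosome 5).

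Much of the cis difference lay in which RNAs were listed at all. The 132 RNAs of chromosome 12 with contacts on it divided into 3 listed in R320* only, 70 in WT only and 59 in both. The WT-only RNAs were 53.0% of the chromosome's RNAs, against 8.08% of the RNAs of other chromosomes, with 50% of 10 RNAs on chromosome X and 19.3% on chromosome 5. Over all chromosomes 8.55% of RNAs were listed in R320* only and 10.3% in WT only. The 70 WT-only RNAs made 1626 of the 2156 local and cis contacts listed in WT only. Over the remaining RNAs, those of both genotypes, 62.5% of local and cis contacts were listed in both, against 59.7% on the other chromosomes. Within these, 269 contacts were listed in R320* only and 530 in WT only, an R320*-only share of 33.7%, while the lowest of the other chromosomes was 48.7% (chromosome X). Their local contacts were listed in both genotypes in 115 of 117 cases (98.3%), against 99.2% on the other chromosomes. At a minimum score of 1.5 the same RNAs had 256 R320*-only and 357 WT-only local and cis contacts, a share of 41.8%, against 59.5% on the other chromosomes.

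The RNAs missing from R320* met between 2 and 69 elements in WT, and those with the most are named here. ATF7, from the gene of a CREB and ATF family transcription factor, met 0 elements in R320* and 69 in WT. SARNP, an RNA export factor, met 0 in R320* and 68 in WT, and AC023055.1 met 0 in R320* and 65 in WT. SPATS2 met 0 in R320* and 54 in WT, and SPPL3, an intramembrane protease, met 0 in R320* and 53 in WT. EIF4B, a translation initiation factor, met 0 in R320* and 50 in WT. EEA1, an early endosome tether, and PCBP2, a poly(C)-binding RNA regulator, each met 0 in R320* and 47 in WT. Several regulators of blood cells and growth were in the same class. TFCP2, a transcription factor of globin genes, met 0 in R320* and 35 in WT. SLC11A2, an iron transporter, met 0 in R320* and 32 in WT. MDM2, the ubiquitin ligase of p53, met 0 in R320* and 30 in WT. ETV6, a blood transcription factor on the p arm, met 0 in R320* and 25 in WT. The genes TFCP2, SLC11A2, MDM2 and ETV6 were chosen for naming after their values were seen.

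Of the 12 RNAs with most contacts on the chromosome, 9 were listed in both genotypes. CHST11, a chondroitin sulfotransferase, met 76 elements in R320* and 77 in WT, 61 of them in both. ATXN2, an RNA-binding protein, met 55 in R320* and 54 in WT. BCAT1, a branched-chain amino acid transaminase, met 53 in R320* and 55 in WT, and USP15, a deubiquitinase, met 50 in R320* and 53 in WT. CRADD, a death-domain adaptor, met 46 in R320* and 49 in WT, and MED13L, a Mediator kinase module subunit, met 51 in R320* and 56 in WT. R3HDM2 met 65 in R320* and 79 in WT, LARP4, an RNA-binding protein, met 54 in R320* and 60 in WT, and DIP2B met 44 in R320* and 54 in WT. At a minimum score of 1.5 the numbers for R3HDM2, BCAT1, USP15 and DIP2B were higher in R320*, by 2, 5, 8 and 9 elements. ATXN2 was then higher in R320* by 9, CHST11 at -6 and MED13L at -1 (R320* minus WT), and CRADD was equal. Less busy RNAs of both genotypes could differ more, as did PPP1R12A, a myosin phosphatase subunit, with 11 elements in R320* and 33 in WT, FBXW8, a ubiquitin ligase subunit, with 22 in R320* and 40 in WT, and SLC38A1, an amino acid transporter, with 31 in R320* and 48 in WT. These last 3 were chosen after their values were seen. Over the 59 RNAs of both genotypes, 14 had more contacts in R320* and 41 fewer, with a median log2 ratio of -0.15. Over all chromosomes 58.1% of such RNAs had more in R320* and 32.1% fewer, and the median on the other chromosomes was 0.10.

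**Figure D2:**
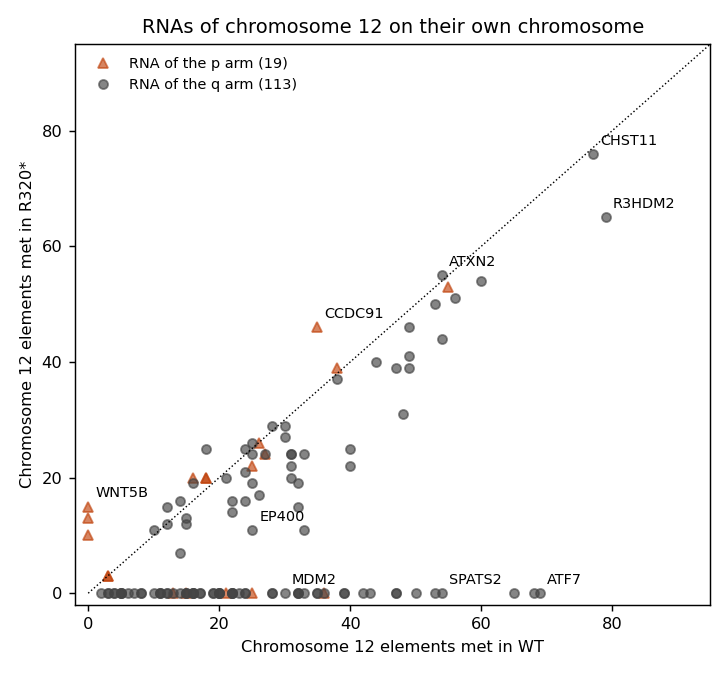
Each point is 1 of the 132 RNAs of chromosome 12, with the number of chromosome 12 elements it met in WT (horizontal) and in R320* (vertical), triangles for the p arm and circles for the q arm, and a dotted line of equal numbers. The 70 RNAs at 0 in R320* reach 69 elements in WT (ATF7), while CHST11 and ATXN2 lie near the line at the deposited minimum score.

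The WT scores of the RNAs absent from R320* are given as a description, since these RNAs entered the table through WT alone. Their highest local WT score had a median of 2.57, against 2.44 for the RNAs of both genotypes. The median over RNAs of their median WT score was 2.00, against 1.78, and the same comparison on the other chromosomes gave 1.86 for WT-only RNAs against 1.75. They met a median of 20 elements in WT, against 28. Their WT-only local and cis contacts had a median score of 1.92, and WT-only cis contacts of RNAs of both genotypes had a median of 1.49. These sets are unlike, since all WT contacts of an absent RNA are WT only, while the second set leaves out shared contacts. On the other chromosomes the same 2 medians were 1.78 and 1.45. Scores cannot be converted to reads here.

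**Figure D3:**
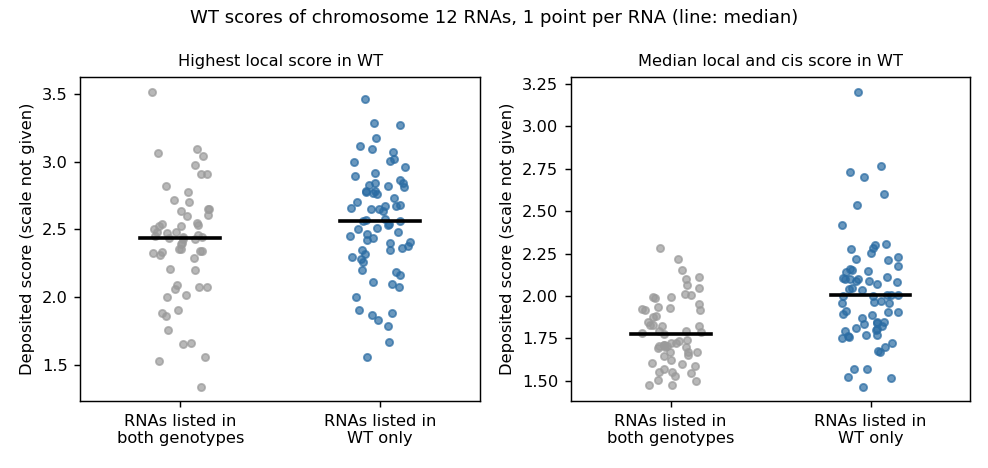
The highest local score (left) and the median local and cis score (right) in WT, in the deposited score units, are shown for the RNAs of chromosome 12 listed in both genotypes and in WT only, with 1 point per RNA and a line at the median. The groups overlap, and the medians of the WT-only RNAs are the higher ones (2.57 against 2.44 left, 2.00 against 1.78 right).

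Absent and present RNAs were found side by side on the q arm. Among 106 q-arm RNAs with a RefSeq gene position, 61 were listed in WT only and 45 in both genotypes, and 56 of the 105 neighbouring pairs belonged to different classes and 49 to the same one. At 12q24, SH2B3, an adaptor that restrains blood cell cytokine signals (chr12:111404730-111451623), met 0 elements in R320* and 17 in WT. Its neighbour ATXN2 (chr12:111452214-111599673) was the near-equal RNA above. MAPKAPK5, TMEM116, NAA25 and HECTD4, the next 4 in line, met 20, 19, 24 and 27 elements in R320*, against 21, 25, 27 and 30 in WT. PTPN11, the phosphatase SHP2 (chr12:112418947-112509918), then met 0 in R320* and 24 in WT. Near MDM2 the same held: NUP107, a nuclear pore protein, met 0 in R320* and 16 in WT, and CPSF6, an mRNA cleavage factor, met 22 in R320* and 31 in WT. The longest unbroken run of WT-only RNAs held 10, from BICD1 on the p arm to SCAF11 on the q arm. These loci were chosen after their values were seen.

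The arms differed. Split at the widest stretch without elements (chr12:33597189-38892305, 5.30 Mb), the p arm had 280 elements and the q arm 1413. The p arm had 143 contacts in R320* only and 224 in WT only, an R320*-only share of 39.0%, above chromosome X (35.9%) and below chromosome 5 (42.0%), the next lowest of the others. The q arm had 301 in R320* only and 2411 in WT only, a share of 11.1%. For RNAs of both genotypes, p-arm local and cis contacts were 70 in R320* only and 60 in WT only, and those of the q arm were 199 in R320* only and 470 in WT only. All 3 R320*-only RNAs were p-arm RNAs: WNT5B, a Wnt ligand, with 15 elements in R320* and 0 in WT, ATF7IP, a heterochromatin factor, with 13 in R320* and 0 in WT, and CRACR2A, a calcium channel regulator, with 10 in R320* and 0 in WT. CCDC91 met 46 elements in R320* and 35 in WT, and ADIPOR2, an adiponectin receptor, 20 in R320* and 16 in WT. Of the q-arm RNAs, SCARB1, the HDL receptor, met 25 in R320* and 18 in WT. ATP2B1, a plasma membrane calcium pump, met 19 in R320* and 16 in WT, and ANAPC5, an anaphase-promoting complex subunit, met 15 in R320* and 12 in WT. At a minimum score of 1.5 SCARB1 and ADIPOR2 turned round, with 2 and 1 fewer elements in R320*.

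Of 27 windows of 5 Mb, 24 had at least 30 contacts. R320*-only contacts outnumbered WT-only contacts in 2 of them and were outnumbered in 22, while over all chromosomes 62.3% of such windows had more R320*-only and 36.3% more WT-only contacts. The net share is R320*-only minus WT-only contacts over all contacts of the window. It was 18.3% in the window from 20 to 25 Mb, which has 17 contacts in R320* only and 6 in WT only, and 12.2% in the first 5 Mb of the p arm, where R320* alone had 42 and WT alone 26. The third highest was -2.99%, from 10 to 15 Mb. The lowest was -90.6% from 40 to 45 Mb on the q arm, with 4 contacts in R320* only, 81 in WT only and none in both. It was followed by -69.1% from 65 to 70 Mb and -68.9% from 45 to 50 Mb. Trans contacts, which come from genes elsewhere, were more often WT only in 21 of the 24 windows and more often R320* only in 3. Those 3, from 10 to 15, 20 to 25 and 30 to 35 Mb, lay on the p arm. Windows were not counted by trans contacts on the other chromosomes, where 8939 trans contacts were R320* only and 9797 WT only.

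**Figure D4:**
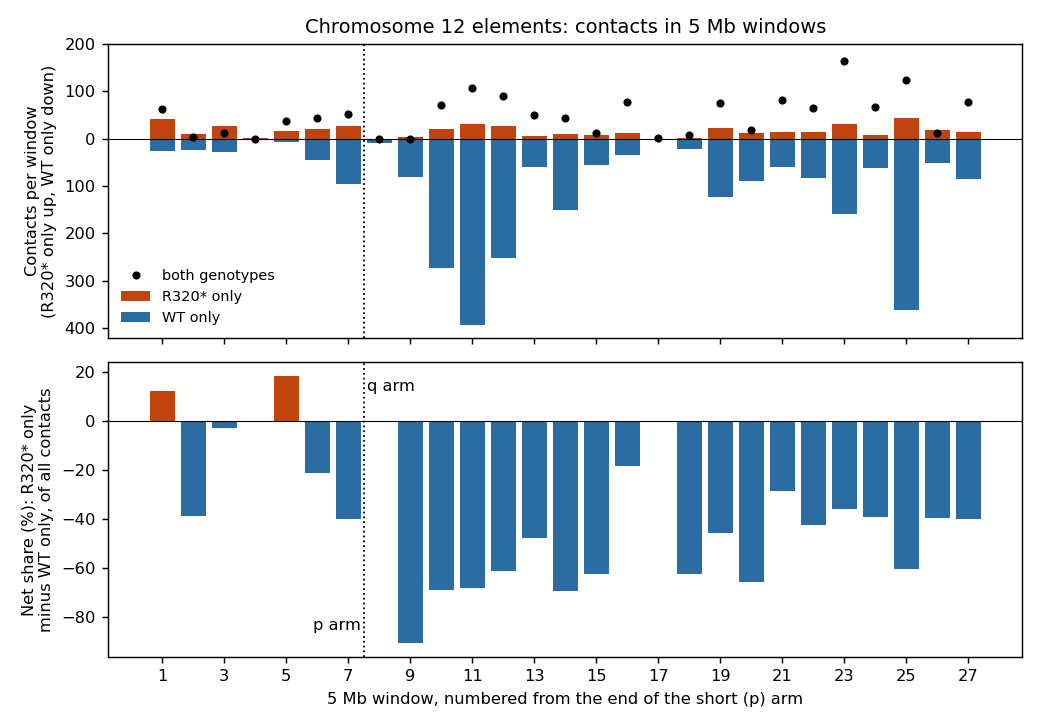
Contacts of chromosome 12 elements in 27 consecutive 5 Mb windows, numbered from the p-arm end, with R320*-only contacts drawn up, WT-only contacts drawn down and contacts of both genotypes as dots (top), and the net share in percent for the 24 windows with at least 30 contacts (bottom); the dotted line marks the element-free stretch between the arms. Over all RNAs, windows 1 and 5 alone are above 0, at 12.2% and 18.3%, and window 9 is lowest at -90.6%.

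By element, 86 of the 1693 had RNAs in R320* only (5.08%), 560 in WT only (33.1%) and 1047 in both (61.8%). Over all chromosomes 11.5% of elements were listed in R320* only and 12% in WT only. An element met a mean of 1.06 RNAs in R320* and 2.36 in WT, against 2.58 in R320* and 2.43 in WT on the other chromosomes. Elements with RNAs in both genotypes and a mean of at least 2 RNAs were compared by number. Of 628 such elements, R320* showed an excess of 2-fold or above at 5 and a deficit of 2-fold or above at 344 (54.8%), 85 of these at exactly 2-fold. The shares over all elements of the table were 12.4% with an excess and 9.6% with a deficit. Over RNAs of both genotypes alone, 426 elements could be compared, of which 70 had at least 2-fold fewer and 8 at least 2-fold more. This last count was not made for the other chromosomes.

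The promoter of VPS37B, an ESCRT-I subunit (element chr12:122885737-122896635), met 2 RNAs in R320* and 13 in WT. MPHOSPH9 and PITPNM2, from neighbouring genes, were the ones listed in both. Those in WT only included its own RNA, SBNO1, CLIP1 and, from the beta-globin locus of chromosome 11, HBE1 and HBG2. The promoter of ITGA5, the fibronectin receptor subunit (element chr12:54416428-54422476), met 1 RNA in R320*, CBX5, and 7 in WT. The adjoining LINC01154 promoter met 1 in R320* and 8 in WT. An enhancer at ANO6, a phospholipid scramblase (chr12:45227328-45228290), met 1 in R320*, SLC38A1, and 7 in WT. Enhancers are named by their nearest gene, which is not known to be their target. Promoters of SCAF11 and NUP107, an enhancer at SCAF11 and an enhancer at TMED2 each met 1 in R320* and 6 in WT. Among elements listed in WT only, the PUS7L promoter and an MMP19 enhancer each met 7 RNAs, and the NPFF promoter met 6. An enhancer at GALNT6 met 5 RNAs in WT, all from other chromosomes. These were AC069277.1 of chromosome 3 and, of chromosome 11, HBE1, HBG2, AC104389.4 and OR51B5. The chromosome 11 RNAs were also in WT only at the VPS37B promoter. RNAs of 1 locus, as HBE1 and HBG2 are, were counted separately. Over all RNAs, the difference at the VPS37B promoter, R320* minus WT, was -11, and -6 at a minimum score of 1.5. Counting only RNAs of both genotypes, at the deposited minimum, the difference was -7 at the VPS37B promoter and -3 at LINC01154. In the same count it was -2 at the ITGA5 and NUP107 promoters and the ANO6 enhancer, and -1 at both SCAF11 elements and at TMED2. It was -2 at PUS7L, -4 at MMP19, -3 at NPFF and -5 at GALNT6.

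The 5 elements with at least 2-fold more RNAs had small numbers. The promoter of STX2, a plasma membrane syntaxin (element chr12:130837589-130839971), and a neighbouring enhancer each met 3 RNAs in R320* and 1 in WT. The additional RNAs were HIRA and C22orf39 of chromosome 22, beside SFSWAP in both. HIRA and C22orf39 each met only these 2 elements on chromosome 12. They were counted separately, and whether they are independent was not tested. An enhancer at NINJ2, an enhancer near WNT5B and the ADIPOR2 promoter each met 4 in R320* and 2 in WT, with the WNT5B RNA among the R320*-only ones at all 3. At a minimum score of 1.5 the excess was 0 at the ADIPOR2 promoter and 1 at each of both enhancers. The ITFG2 promoter (element chr12:2811631-2814221) met ADIPOR2 and TSPAN9 RNAs in R320* and 0 RNAs in WT, and the FKBP4 promoter met ADIPOR2 and CRACR2A in R320* and 0 in WT. A stretch of 10 consecutive elements with more RNAs in R320* (chr12:14256061-14396383) ran from AC092112.1 to ATF7IP, with 14 contacts in R320* and 0 in WT, made by ATF7IP, LRP6 and NEAT1. In all, 2 runs of at least 5 elements had more RNAs in R320*, and 67 had fewer, covering 948 elements. The longest, from DNM1L to AC008083.1 (chr12:32705842-47273783), had 78 elements with 36 contacts in R320* and 218 in WT. Neighbouring elements share RNAs and are not independent. Runs were not counted on the other chromosomes, so these numbers have no background.

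By nearest gene, 70 of 797 genes had more contacts in R320*, 618 (77.5%) fewer and 109 equal numbers, while 41.8% of the nearest genes of the whole table had more and 34.7% fewer. Blood and red cell loci gave 2 with more, 13 with fewer and 3 equal, of 18 with an element. SOCS2, a cytokine signal inhibitor, had 13 in R320* and 34 in WT, RAP1B, a small GTPase, 2 in R320* and 15 in WT, and ITGA5 and SH2B3 each 4 in R320* and 16 in WT. Chromatin and Mediator loci gave 0 with more, 13 with fewer and 3 equal: HDAC7, a histone deacetylase, had 8 contacts in R320* and 19 in WT, and KMT5A, a histone H4 methyltransferase, 2 in R320* and 10 in WT. Cell cycle and growth loci gave 1 with more, 11 with fewer and 2 equal, with MDM2 at 2 contacts in R320* and 8 in WT. HOXC and developmental loci, a list that also held PITPNM2, gave 1 with more and 8 with fewer. SP1, a general transcription factor, had 3 in R320* and 11 in WT, and PITPNM2 had 5 in R320* and 13 in WT. Keratin loci gave 0 with more and 4 with fewer. Metabolic loci, a list that also held PCBP2, gave 0 with more, 7 with fewer and 1 equal, with ALDH2, a mitochondrial aldehyde dehydrogenase, at 15 in R320* and 22 in WT. RNA processing loci gave 1 with more, 7 with fewer and 1 equal, with DDX55, an RNA helicase, at 0 in R320* and 5 in WT. The natural killer receptor list, of a lectin-like receptor cluster and MAGOHB, which is no receptor gene, had 2 members with an element. KLRK1 had 1 contact in R320* and 0 in WT, and MAGOHB had 0 in R320* and 1 in WT. In each list but the last, genes with fewer contacts outnumbered those with more, as over the chromosome's nearest genes as a whole.

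RNAs of other chromosomes that visited chromosome 12 numbered 129, and 21 of them made only 1 contact here. Of the 129, 121 were listed in both genotypes somewhere in the table. Of the 121, 31 met more chromosome 12 elements in R320*, 88 fewer and 2 equal numbers. They made 162 contacts here in R320* and 461 in WT, but 14352 in R320* and 13607 in WT on the other chromosomes, and 52 had fewer here and more elsewhere. Such counts of RNAs were not made for visitors of another chromosome, so they have no background. NEAT1 met 22 chromosome 12 elements in R320* and 31 in WT, against 1114 in R320* and 772 in WT elsewhere. MALAT1 met 4 here in R320* and 23 in WT, against 705 in R320* and 647 in WT elsewhere; at a minimum score of 1.5 it met 1 more here in R320* than in WT. The long noncoding RNA AC004936.1 met 1 in R320* and 20 in WT, against 556 in R320* and 395 in WT elsewhere. AC097528.1 met 2 in R320* and 17 in WT, against 571 in R320* and 492 in WT elsewhere. GPBP1 met 1 in R320* and 12 in WT, against 166 in R320* and 107 in WT elsewhere, and SKI, a SMAD corepressor, 0 in R320* and 13 in WT, against 233 in R320* and 201 in WT elsewhere. At a minimum score of 1.5 the difference here, R320* minus WT, was 0 for SKI, -6 for AC097528.1, -11 for AC004936.1 and -19 for AL713998.1. AL713998.1 met 0 here in R320* and 29 in WT, but its numbers elsewhere, 25 in R320* and 308 in WT, were uneven too. Among RNAs with a mean of at least 5 elements here, the largest excess in R320* was that of CAPRIN1, with 7 elements here in R320* and 3 in WT.

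**Figure D5:**
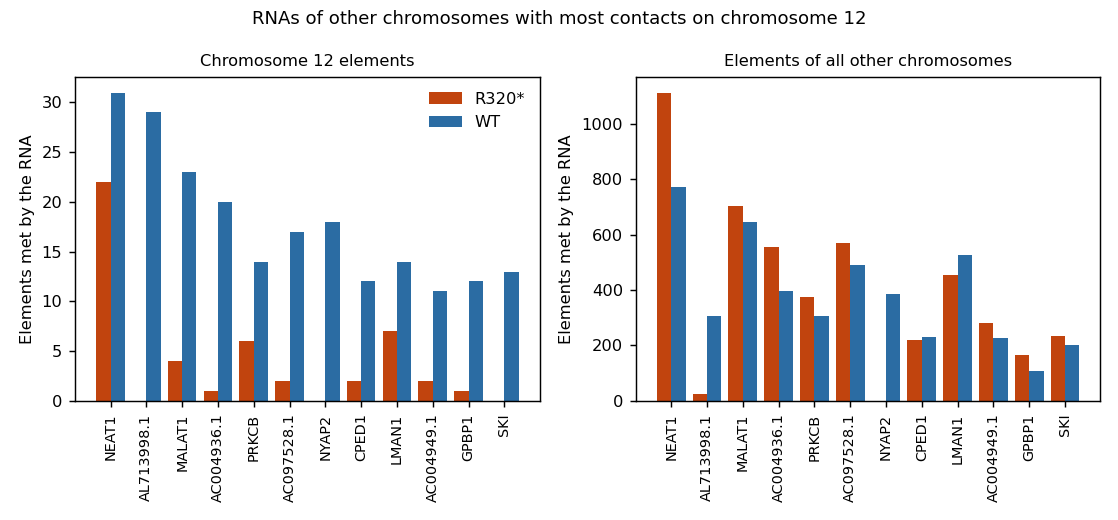
The number of elements met by the 12 RNAs of other chromosomes with most contacts on chromosome 12 is drawn for R320* (left bar of each pair) and WT (right bar), on chromosome 12 (left panel) and on all other chromosomes (right panel). On chromosome 12 every WT bar is the taller, while elsewhere NEAT1 (1114 in R320*, 772 in WT), MALAT1 and 6 others are taller in R320*.

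Counting an RNA with a mean of at least 5 chromosome 12 elements as depleted where it met none or at most 1/2 as many in R320*, 61 of 117 chromosome 12 RNAs were depleted (57 absent, 4 reduced), against 9.71% of RNAs on their own chromosome in the whole table. Of 17 RNAs of other chromosomes with such a mean, 13 were (5 absent here, 8 reduced), against 25.6% of pairs of an RNA and another chromosome. Trans contacts reached 413 of the 1693 elements: 75 had more of them in R320*, 304 fewer and 34 equal numbers, while 39.1% of such elements in the whole table had more and 48.8% fewer. The busiest were a promoter and an enhancer at AC079949.4, the promoter with 11 trans RNAs in R320* and 18 in WT and the enhancer with 10 in R320* and 19 in WT; MALAT1 and LMAN1 were listed in both genotypes at both. The RNA of RUNX1 itself, from chromosome 21, met 4 chromosome 12 elements in R320* and 2 in WT, and 1 of them, an enhancer at KRT2, was listed in both.

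By distance, the genotypes were closest near the gene. For RNAs of both genotypes whose gene lies under 100 kb from an element, 432 contacts were listed in R320* and 436 in WT. From 100 kb to 1 Mb there were 821 in R320* and 966 in WT, and over 1 Mb 298 in R320* and 398 in WT. On the p arm, 141 contacts from 100 kb to 1 Mb were listed in R320* and 130 in WT. The R320*-only share of single-genotype contacts was 37.5% under 100 kb, from only 6 contacts in R320* only and 10 in WT only. It was 29.6% from 100 kb to 1 Mb and 37.3% over 1 Mb. On the other chromosomes these shares were 59.1%, 59.1% and 56.1%. R320*-only minus WT-only contacts, over all contacts, came to -0.90%, -13.5% and -18.3% in the 3 ranges. The other chromosomes gave 0.88%, 5.73% and 8.65%. Contacts over 1 Mb were 19.2% of the total in R320* and 22.1% in WT, against 28.0% in R320* and 26.3% in WT on the other chromosomes.

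Scores of contacts listed in both genotypes hardly differed. The 1355 shared contacts had a median score of 1.90 in R320* and 1.87 in WT, and the median difference, R320* minus WT, was 0.0195 (SD over contacts 0.240), against 0.0394 over the whole table. A difference of at least 1 unit was reached by 1 contact higher in R320* and 2 lower, where the whole table had 0.0998% and 0.0749%. LRP6 RNA, from a Wnt co-receptor gene, at the promoter of the cell cycle inhibitor CDKN1B scored 2.39 in R320* and 1.34 in WT. RAP1B RNA at an enhancer at LINC02384 scored 1.22 in R320* and 2.49 in WT. SINHCAF RNA at an enhancer near AC023157.3 scored 1.36 in R320* and 2.48 in WT.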

How the data were processed

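GRID-seq libraries of K562 cells, 2 with RUNX1 R320* and 2 with WT RUNX1, were assigned to groups from the labelled genotype. Per the submitters' processing notes, cutadapt 1.12, BWA and bedtools were used on hg38. The authors deposited 1 table of 115357 contacts with a score per genotype and the difference of both scores; the making of a score, its scale and the pooling of libraries are steps not given in the sources used here. The lowest deposited score above 0 was 1.20. Depth is unknown.

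Contacts were counted by genotype class with pandas 2.3.3 and numpy 2.4.6. Because the table is pooled, the design's option without a test was used. Element starts, taken to be 0-based, are printed 1-based. RNA gene positions came from RefSeq (GRCh38.p14) for 125 of 132 RNAs. Calls used a 2-fold difference among elements with a mean of 2 RNAs, a mean of 5 elements per RNA, and 1 score unit. Named items followed a rule: windows with the 3 highest and 3 lowest net shares, elements with the 8 largest ratios each way and the 6 busiest of each class, RNAs with the 12 highest numbers and the 8 largest differences each way, the 5 largest score differences each way, and up to 4 members per locus list. Members and lists were chosen with earlier results of these data known. Some items are given by count only. Alternatives were a minimum score of 1.5, RNAs of both genotypes, contacts merged within 1 Mb, other window sizes, minimum numbers and centring.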

Additional observations from a re-analysis of the deposited data

How the results depend on the processing

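No paired analysis was possible because the table is pooled by genotype, and for the same reason no library could be left out. WT-only contacts outnumbered R320*-only ones over the chromosome in each alternative listed next, but not among p-arm local and cis contacts of RNAs of both genotypes (70 in R320* only and 60 in WT only, and 55 in R320* only and 50 in WT only at a minimum score of 1.5). The R320*-only share of single-genotype contacts (14.4% as reported) was 15.8% at a minimum score of 1.5, 29.6% over RNAs of both genotypes, 20.3% with contacts merged within 1 Mb, 12.5% for chromosome 12 RNAs and 22.2% for other RNAs. Alternatives for each arm and for RNAs of both genotypes were chosen after seeing the data: the p arm gave 49.3% over RNAs of both genotypes, the q arm 12.7% at 1.5, 26.0% over such RNAs and 17.2% merged, and local and cis contacts of such RNAs 41.8% at 1.5 and 23.1% merged. With 10 Mb windows, 1 window had more R320*-only contacts. Elements with 2-fold more RNAs, 5 of 628 as reported, numbered 40 of 1047 at a mean of 1 RNA and 0 of 85 at a mean of 4. Over RNAs of both genotypes they numbered 8 of 426. Elements with 2-fold fewer, 344 of 628 as reported, numbered 46 of 85 at a mean of 4 and 213 of 423 at 1.5. Over RNAs of both genotypes they numbered 70 of 426. Visiting RNAs depleted in R320* numbered 74 of 134 as reported and 45 of 99 at a mean of 10 elements. Enriched ones numbered 4 of 134 as reported and 10 of 184 at a mean of 2. They numbered 0 of 99 at a mean of 10 and 2 of 116 at 1.5. The shared score difference turned to -0.0200 when centred on the whole table and to -0.00177 for other RNAs. At 1.5, R320* minus WT turned to 2 for R3HDM2, 5 for BCAT1, 8 for USP15, 9 for DIP2B, -2 for SCARB1, -1 for ADIPOR2 and 1 for MALAT1. Of 30 named elements, the difference moved by over 1.5 times for 9 at 1.5 and for 23 over RNAs of both genotypes, and of 41 named RNAs 13 moved and 7 turned at 1.5. The cause was not tested for any of these.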
